A study of Homo sapiens with 30 samples.

Results

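The comparison followed time under the inhibitor AZD8186 alone: RNA taken after 24 h was set against RNA taken after 6 h in 4 cell lines of diffuse large B-cell lymphoma (DLBCL). Its members were chosen by their labels, as AZD8186 libraries at 6 h or 24 h, which gave 8 of the 30 libraries of the series, 4 at each time, paired by cell line. HT and K422 are of the germinal center B-cell-like (GCB) subtype, and OCI-Ly10 and TMD8 of the activated B-cell-like (ABC) subtype. All 8 cultures received AZD8186 at 0.5 µM, a dose given in the study's methods, and no other agent is named for them. For retroviral transduction, those methods state, the study's lines were given a murine ecotropic receptor and a bacterial tetracycline repressor. Whether the sequenced cultures carried these is not said. The 7 AZD8186 libraries at 12 h and 18 h gave the course between (TMD8 has no 12 h library), and 15 DMSO libraries of the same lines and hours served as the background, although the design text calls the controls untreated. There was 1 library for each line, treatment and time, and the sources do not say whether they came from separate cultures, so the p-values reflect the spread among these libraries alone. Cell lines grown without other cells are the whole model, and in bulk RNA fewer cells of a type and less RNA per cell cannot be told apart.

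PI3Kβ and PI3Kδ are lipid kinases that turn signals at the membrane, among them those of the B-cell receptor, into activation of AKT. AKT keeps FOXO transcription factors out of the nucleus and feeds mTOR, which drives ribosome production, glycolysis and lipid synthesis. In many ABC lymphomas the receptor also drives NF-κB. AZD8186 inhibits PI3Kβ and PI3Kδ.

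Totals were 16877525 to 23579029 counts per library. Ribosomal RNA took 1.24% to 4.35% of the counts, with the highest share in TMD8 at 6 h, against 1.69% at 24 h in that line. The labelled cells were checked against marker genes, summed as CPM, counts scaled to the library size after TMM normalization. B-cell markers came to 3210 to 7156 CPM at 6 h and 3308 to 8725 CPM at 24 h. Germinal center markers were at 880 to 1320 CPM in HT and K422 and at 50.6 to 88.1 CPM in OCI-Ly10 and TMD8, while ABC markers ran the other way, at 75.9 to 172 CPM against 1352 to 2090 CPM. BCL6 gave 575 to 929 CPM of the germinal center sums in HT and K422, and not every marker followed its sum. The germinal center marker LMO2 was at 0 CPM in HT and at most 0.46 in K422. In TMD8 it was at 8.68 CPM at 6 h and 23.8 at 24 h. The ABC marker FOXP1 was at 118 and 159 CPM in K422 and at 118 and 131 in TMD8. Of other cells, 6 of 12 myeloid markers were at 0 and their sum stayed at or under 2.23 CPM. T-cell markers summed to 26.4 to 772 CPM, highest in TMD8 through GZMB (379 CPM at 6 h and 764 CPM at 24 h), with CD8B, TRAT1 and GZMA at 0. GZMB was at 52.5 and 21.5 CPM in OCI-Ly10. In K422 CD3G was at 75.6 and 90.9 CPM and CD3D at 22.7 and 23.4. CD247 was at 28.6 and 26.1 CPM in HT and at 29.1 and 18.2 in K422. Stromal markers reached 475 and 574 CPM through DCN in K422, with KDR at 0. Their part in the results was not tested.

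In the 8 libraries, with cell line as a block, edgeR called none of 11374 genes higher (0%) and none lower (0%) at 24 h at an adjusted p under 0.05. At an unadjusted p under 0.05 there were 1659 genes, 1045 higher and 614 lower, and the smallest adjusted p was 0.138. DESeq2 called 185 higher and 135 lower on the same libraries, and limma-voom called none. In 1433 genes (12.6%) the level was higher at 24 h in all 4 lines and in 1104 (9.71%) it was lower in all 4. The lines differed in how far they moved. The share of genes that differed by 2-fold or more was 2.38% in HT, 5.7% in K422, 4.6% in OCI-Ly10 and 5.11% in TMD8.

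When all 15 AZD8186 libraries entered the fit, with the 4 times and the cell line as terms, the same contrast of 24 h with 6 h called 438 of 12584 genes higher (3.48%) and 305 lower (2.42%). This fit is the source of every log2 fold change (± SE), adjusted p (edgeR) and "rose" or "fell" for time under AZD8186 given from here on. The fit was made that source after the 8 libraries had given no call. It has 8 residual degrees of freedom against 3, and the fold changes are those between 24 h and 6 h. The added degrees come from 12 h and 18 h libraries of the same 4 lines, which the fit treats as independent. Hours within a line are not replicates, and the contrast still rests on 4 pairs. The same holds for the DMSO fit and the interaction fits that use all hours. The calls depended on the lines. Without HT there were 148 higher and 109 lower, without K422 151 and 105, without OCI-Ly10 24 and 7, and without TMD8 664 and 511. In the DMSO libraries of the same hours, 299 genes were higher (2.38%) and 468 lower (3.72%). Over all genes the median log2 change under AZD8186 was 0.031.

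Of the called genes, 15 higher and 6 lower remained called with each of the 4 lines left out in turn. These 21 genes, picked out after their values were seen, include B-cell transcription factors (BACH2, POU2AF1), interferon-responsive genes (DDX60, TRIM22, NLRC5), membrane and vesicle traffic genes (TRAPPC6A, EXOC4, VPS13C, ATP8A1), glycolytic enzymes (PGK1, ENO1, ALDOA, ALDOC), thioredoxin (TXN) and asparagine synthetase (ASNS).

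**Figure D1:**
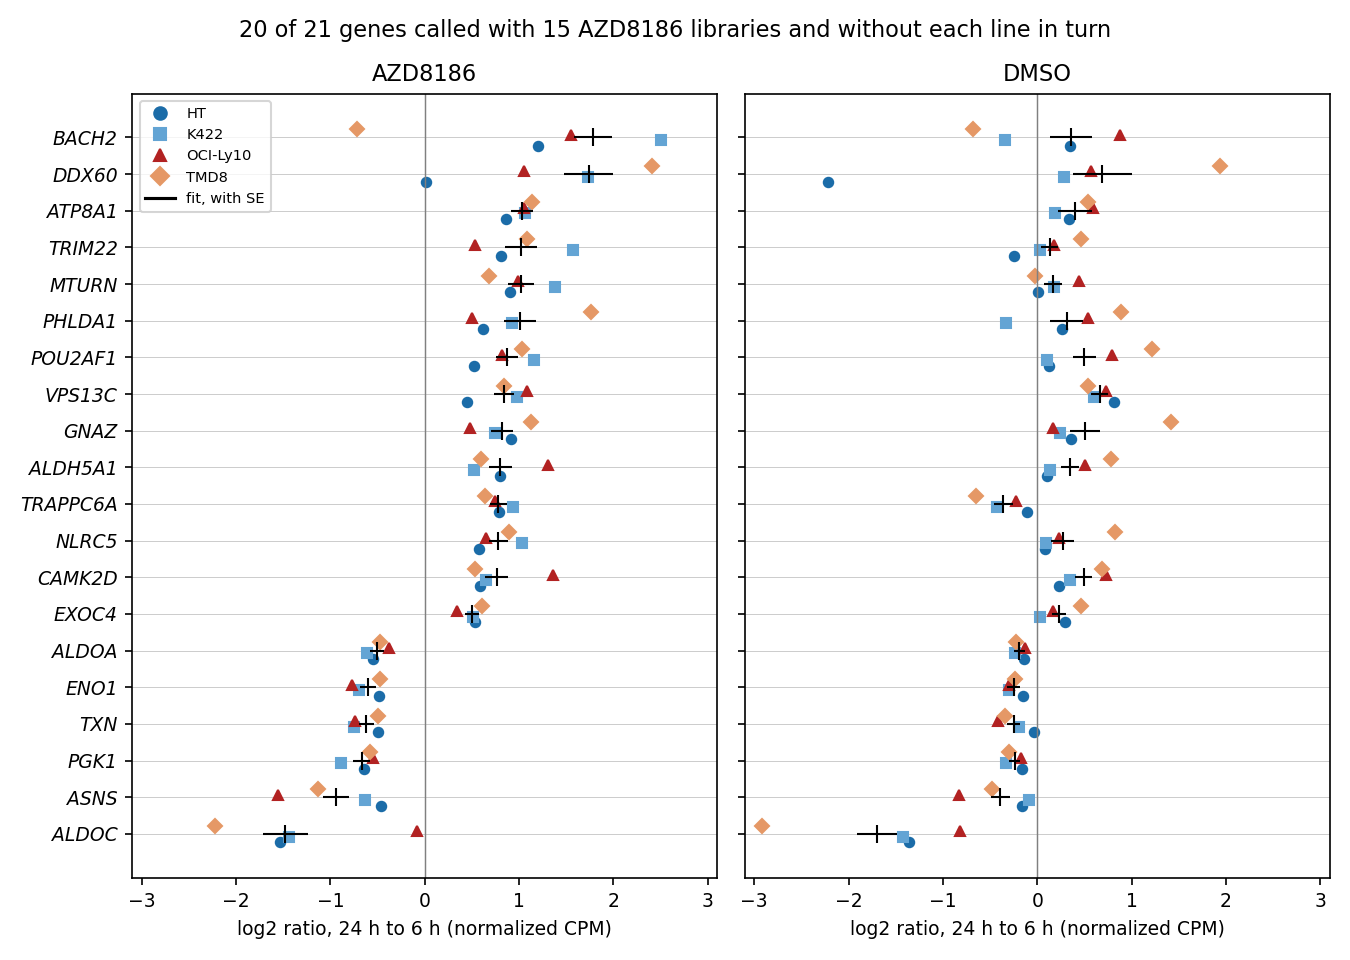
Log2 ratio of the normalized level at 24 h to that at 6 h for 20 of the 21 genes called with every cell line left out in turn, AZD8186 at left and DMSO at right, 1 point per cell line, with black crosses for the 15-library fits and their SE. The vertical lines mark no difference, and under AZD8186 a reader should see the 14 higher genes drawn to its right and the 6 lower ones to its left in nearly every line, with BACH2 in TMD8, where it is near 0 CPM, to the left at -0.72 and DDX60 in HT on the line.

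BACH2, a repressor that holds B cells back from becoming plasma cells, stood at 26.9 CPM at 6 h and 62.1 at 24 h in HT, 24.8 and 141 in K422, 5.4 and 16 in OCI-Ly10, and 0.0683 and 0 in TMD8. It was higher at 24 h in the 3 lines that express it, and the ranges of the 2 times overlapped across lines. It rose by 1.78 ± 0.20 (adjusted p = 0.00186), against 0.36 in DMSO (adjusted p = 0.362). POU2AF1, a coactivator of octamer-binding factors in B cells, went from 724 to 1030 CPM in HT, 811 to 1820 in K422, 190 to 336 in OCI-Ly10 and 36.7 to 75.2 in TMD8. Levels at 24 h were higher in all 4 lines, with overlap of the 2 times across lines. Its log2 change was 0.87 ± 0.12 (adjusted p = 0.00306), and 0.50 in DMSO (adjusted p = 0.0279).

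Among the traffic genes TRAPPC6A, a subunit of the vesicle-tethering TRAPP complex, was at 31.1 and 54 CPM in HT, 35 and 66.8 in K422, 83.7 and 140 in OCI-Ly10 and 37.2 and 58 in TMD8 at 6 h and 24 h. Every line was higher at 24 h, and OCI-Ly10 at 6 h lay above the other 3 lines at 24 h. It rose by 0.78 ± 0.091 (adjusted p = 0.00186), while in DMSO its change was -0.36 (adjusted p = 0.0522). ATP8A1, a flippase that moves phospholipids between membrane leaflets, went from 14.7 to 26.8 CPM in HT, 12 to 25.2 in K422, 10.6 to 22.1 in OCI-Ly10 and 5.6 to 12.5 in TMD8. The 2 times overlapped only through TMD8, which was lowest at both. VPS13C, a lipid transfer protein, rose by 0.84 ± 0.11 (adjusted p = 0.00306) and also by 0.66 in DMSO (adjusted p = 0.00341). EXOC4, a subunit of the exocyst complex, rose by 0.50 ± 0.074 (adjusted p = 0.00354). Among the other higher genes of the 21 were MTURN (1.02), GNAZ (0.82), an inhibitory G-protein subunit, and the calcium-regulated kinase CAMK2D (0.76). So were ALDH5A1 (0.80), which acts in the breakdown of GABA, and PHLDA1.

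PIK3CD, which encodes the catalytic subunit of PI3Kδ, went from 112 to 152 CPM in HT, 42 to 56 in K422, 244 to 259 in OCI-Ly10 and 270 to 330 in TMD8. The level was higher at 24 h in each line, and the ranges overlapped. Its change of 0.30 ± 0.081 (adjusted p = 0.0438) was no longer called with any 1 of the 4 lines left out (adjusted p without TMD8 0.0645). PIK3CB, for PI3Kβ, had a change of -0.09 (adjusted p = 0.535) and PIK3CA, for PI3Kα, one of 0.087 (adjusted p = 0.579). Of 35 pathway genes tested 3 were called higher and 0 lower, namely PIK3CD, TSC2 and RICTOR, with a list median of 0.087. For this and every other list the shares to hold the counts of the full 15-library fits against are those over all genes. They are 3.48% higher and 2.42% lower, or 2.38% and 3.72% in DMSO. List counts with a line left out stand against the calls of that fit over all genes. These were 148 higher and 109 lower of 12559 without HT and 151 and 105 of 12596 without K422. Without OCI-Ly10 they were 24 and 7 of 12308, and without TMD8 664 and 511 of 12365. The pathway list held no call without K422 or OCI-Ly10.

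FOXO target genes, which FOXO factors switch on when AKT is inactive, held 7 genes higher and 0 lower of 29 tested, with a median of 0.28 against 0.031 over all genes. DMSO held 3 higher. PIK3IP1, a negative regulator of PI3K, went from 8.34 to 13.1 CPM in HT, 25.5 to 41.2 in K422, 1.4 to 2.82 in OCI-Ly10 and 0.0683 to 0.279 in TMD8. It was higher at 24 h in all 4 lines but near 0 in TMD8, and the 2 times overlapped. It rose by 0.75 ± 0.14 (adjusted p = 0.00844). BCL2L11, the pro-apoptotic protein BIM, rose by 0.29 (adjusted p = 0.0247) and RBL2, the pocket protein p130 that holds cells in quiescence, by 0.41 (adjusted p = 0.0182). FOXO3 (0.59), BCL6 (0.33), RICTOR (0.56) and KLF2 (0.76) were the others. Without HT or K422 there was 1 call, without OCI-Ly10 0, and without TMD8 13 higher and 1 lower.

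Genes of the B-cell receptor, its co-receptors and kinases held 8 higher and 0 lower of 33 tested, with a median of 0.27. In DMSO 1 was higher and 1 lower. PTPN6, the phosphatase SHP-1 that dampens receptor signaling, went from 37.2 to 69.3 CPM in HT, 95.3 to 138 in K422, 157 to 344 in OCI-Ly10 and 129 to 369 in TMD8. It was higher at 24 h in all 4 lines, in the ABC lines by the most, and the ranges overlapped. It rose by 0.99 ± 0.17 (adjusted p = 0.0058), and its value in DMSO was 0.033. PLCG2, the phospholipase downstream of BTK, went from 474 to 562 CPM in HT, 510 to 695 in K422, 342 to 480 in OCI-Ly10 and 187 to 353 in TMD8, a rise of 0.51 ± 0.10 (adjusted p = 0.0118). BTK, BLNK, LYN, FCRL1 and FCRL5 also rose, by 0.27 to 1.09. Without HT the list held 6 calls, without K422 2 and without OCI-Ly10 1, and PTPN6 was among those lost without OCI-Ly10.

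**Figure D2:**
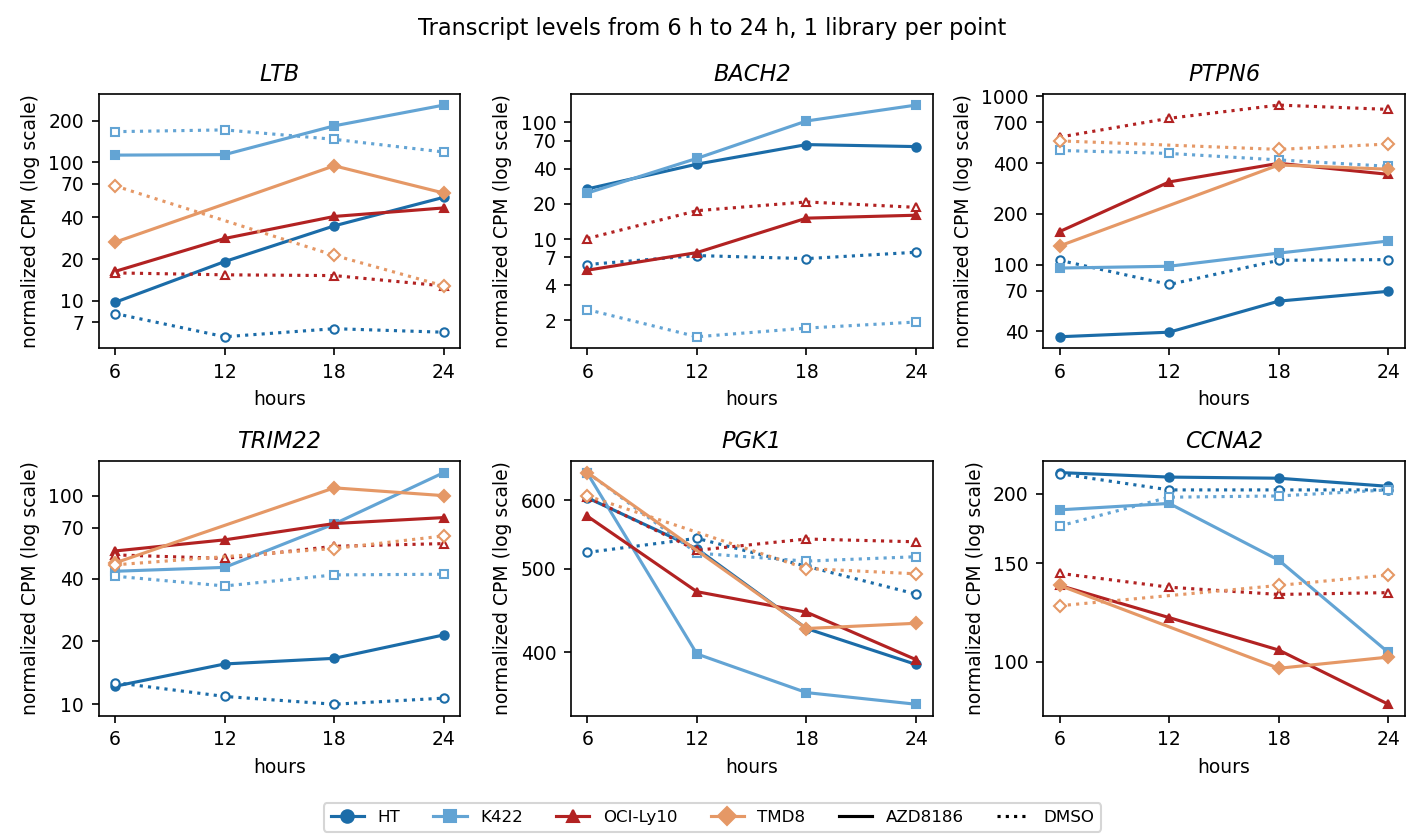
Normalized level in CPM (log axis) against hours of treatment for LTB, BACH2, PTPN6, TRIM22, PGK1 and CCNA2, 1 line per cell line, AZD8186 solid and DMSO dotted; each point is 1 library and series under 1 CPM are not drawn. LTB, BACH2, PTPN6 and TRIM22 end higher at 24 h than at 6 h under AZD8186 in the lines drawn, PGK1 ends lower in all 4, and CCNA2 ends lower with HT nearly level (218 and 206 CPM).

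LTB, lymphotoxin beta, a membrane cytokine of the TNF family and an NF-κB target gene, moved in opposite directions with and without the drug. Under AZD8186 it measured 9.74, 19.2, 34.8 and 56 CPM at 6, 12, 18 and 24 h in HT, 113, 114, 184 and 260 in K422, and 16.3, 28.2, 40.7 and 46.9 in OCI-Ly10. In TMD8 it measured 26.5, 94.6 and 60.1 CPM at 6, 18 and 24 h. In DMSO the 6 h and 24 h values were 8.08 and 5.92 CPM in HT, 167 and 119 in K422, 15.9 and 12.8 in OCI-Ly10 and 67.7 and 12.8 in TMD8. The level was thus higher at 24 h in all 4 lines with the drug and lower in all 4 without it, while the 2 times overlapped across lines. It rose by 1.58 ± 0.21 (adjusted p = 0.00306), a call that ended without OCI-Ly10, and fell by 1.0 in DMSO (adjusted p = 0.0255). The gene lies at chr6:31580525-31582522 on the minus strand (GENCODE 29, GRCh38). The window from 250 bases before to 50 after its RefSeq start (GRCh38.p14, chr6:31582376-31582675, minus strand) is shown because it holds a match to the NF-κB motif, searched on both strands and shown in capitals, beginning 86 bases before the start. A match was found in 0.39% of the 9733 windows of tested genes, in 1.48% of the 337 of genes that rose and in 0.41% of the 244 of genes that fell. The window also holds a match to the forkhead motif (TGTTTAC, both strands), left in lower case, which begins 123 bases before the start. That motif was found in 2.27% of all windows, 3.86% of those of genes that rose and 1.64% of those of genes that fell.
LTB: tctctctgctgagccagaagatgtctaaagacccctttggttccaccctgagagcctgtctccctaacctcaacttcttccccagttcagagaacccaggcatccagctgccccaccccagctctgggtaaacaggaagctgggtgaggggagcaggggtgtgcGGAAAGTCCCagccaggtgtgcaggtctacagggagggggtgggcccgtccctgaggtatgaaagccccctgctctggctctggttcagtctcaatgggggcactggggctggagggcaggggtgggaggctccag

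Other NF-κB target genes were mixed. Of 44 tested, 3 were higher and 1 lower, the latter near the 2.42% of all genes, with a median of 0.16: LTB, NFKBIZ and TNFAIP2 rose and the chemokine CCL22 fell by 1.06 (adjusted p = 0.0168), NFKBIZ, TNFAIP2 and CCL22 being near 0 in some lines. In DMSO, 0 were higher and 10 lower. IL10, an anti-inflammatory cytokine with most of its reads in the ABC lines, went from 3.94 to 10.3 CPM in OCI-Ly10 and 9.77 to 15 in TMD8, and its change of 0.91 did not pass (adjusted p = 0.0572). IRF4, the plasma cell and ABC transcription factor, went from 451 to 511 CPM in OCI-Ly10 and 462 to 884 in TMD8 and was at or under 0.0516 CPM in HT and K422 (0.55, adjusted p = 0.0645). The NF-κB inhibitor gene NFKBIA (0.35, adjusted p = 0.239) and the survival gene BCL2L1 (0.35, adjusted p = 0.109) did not pass, nor did TNF (0.15), TNFAIP3 (0.15), NFKBIE, NFKBID and CFLAR, and IL6 was too low to be tested. The list held 0 calls without OCI-Ly10 and 6 higher and 4 lower without TMD8.

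Of 30 early genes of receptor and MAP kinase signaling, 1 was higher and 0 lower. That gene, PHLDA1, went from 0.3 to 0.518 CPM in HT, 83.5 to 158 in K422, 89.6 to 127 in OCI-Ly10 and 10 to 34.4 in TMD8. It was higher at 24 h in all 4 lines, with HT near 0, and rose by 1.01 ± 0.17 (adjusted p = 0.00583). JUN, JUNB (0.15) and JUND, subunits of the AP-1 factor, did not pass. MYC, which drives growth and ribosome production, went from 135 to 155 CPM in HT, 207 to 254 in K422, 161 to 211 in OCI-Ly10 and 62.9 to 164 in TMD8. All 4 lines were higher at 24 h, TMD8 by far the most, but the change of 0.52 did not pass (adjusted p = 0.0715).

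Interferon-stimulated genes, which cells switch on in defense against viruses, held 11 higher and 0 lower of 40 tested, with a median of 0.86 against 0.031 over all genes. DMSO held 4 higher. The medians of the log2 ratios per line were -0.016 in HT, 1.71 in K422, 0.29 in OCI-Ly10 and 0.54 in TMD8 under AZD8186, and -0.22, 0.029, 0.25 and 0.30 in DMSO. K422 had the highest median, and that of HT lay near 0. Without K422 the list median was 0.22 with 4 calls, without OCI-Ly10 1.03 with 2, without HT 1.07 with 8 and without TMD8 1.0 with 21.

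TRIM22, an antiviral ubiquitin ligase, measured 12.2 CPM at 6 h and 21.5 at 24 h in HT, 43.4 and 129 in K422, 54.3 and 78.5 in OCI-Ly10 and 47.6 and 100 in TMD8. Each line was higher at 24 h, and the ranges overlapped through HT. It rose by 1.02 ± 0.17 (adjusted p = 0.005), against 0.13 in DMSO (adjusted p = 0.444). OAS2, which makes the activator of RNase L, went from 2.1 to 3.11 CPM in HT, 58.9 to 306 in K422, 124 to 269 in OCI-Ly10 and 58.8 to 104 in TMD8 (1.39 ± 0.24, adjusted p = 0.00596), and rose in DMSO by 0.60 (adjusted p = 0.00419). OAS3 of the same enzyme family went from 38.6 to 89.5 CPM in K422, 39.8 to 65.2 in OCI-Ly10 and 19.1 to 66.7 in TMD8, and lay at 0.05 and 0.0432 CPM in HT. DDX60, a helicase that aids sensing of viral RNA, went from 9.41 to 31.4 CPM in K422, 1.14 to 2.49 in OCI-Ly10 and 3.14 to 17.2 in TMD8, with 0.3 and 0.302 in HT. OAS3 and DDX60 were thus higher in the 3 lines that express them, with overlap between the times, and changed by 1.22 ± 0.22 (adjusted p = 0.00826) and 1.74 ± 0.26 (adjusted p = 0.00364). The calls of OAS2 and OAS3 ended without OCI-Ly10.

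The promoters of OAS3 and DDX60 are shown because each holds 2 copies of the interferon element, searched on both strands as TTTC, any 2 bases and TTTC, and here in capitals as read on the other strand. In OAS3 (GRCh38.p14, chr12:112938224-112938523, plus strand) they begin 143 and 12 bases before the RefSeq start. In DDX60 (chr4:168318703-168319002, minus strand) they begin 88 and 53 bases before it. The element was in 19 of the 29 windows of interferon-stimulated genes (65.5%), in 5.04% of the windows of genes that rose, in 1.64% of those that fell and in 2.92% of all. Other motifs searched also matched in the OAS3 window and are not marked. An NF-κB match begins 130, a sterol element 79 and an E2F match 16 bases before the start.
OAS3: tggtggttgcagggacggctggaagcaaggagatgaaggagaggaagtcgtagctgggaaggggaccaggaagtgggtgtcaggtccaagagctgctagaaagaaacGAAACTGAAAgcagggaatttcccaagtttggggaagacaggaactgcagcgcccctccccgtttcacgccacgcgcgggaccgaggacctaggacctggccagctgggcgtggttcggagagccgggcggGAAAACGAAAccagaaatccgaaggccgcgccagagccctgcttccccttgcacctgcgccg
DDX60: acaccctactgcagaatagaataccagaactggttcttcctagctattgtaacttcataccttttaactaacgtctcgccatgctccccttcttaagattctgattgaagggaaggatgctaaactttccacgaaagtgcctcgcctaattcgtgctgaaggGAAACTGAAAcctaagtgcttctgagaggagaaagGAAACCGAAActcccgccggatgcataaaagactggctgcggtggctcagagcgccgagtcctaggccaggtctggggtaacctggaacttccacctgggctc

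Of 19 genes of class I antigen presentation 3 were higher and 0 lower, led by NLRC5, the transactivator of class I genes, which went from 15.7 to 23.3 CPM in HT, 15.3 to 31.4 in K422, 20.1 to 31.6 in OCI-Ly10 and 8.06 to 15.1 in TMD8. All 4 lines were higher at 24 h, with TMD8 at 24 h below the other 3 lines at 6 h. NLRC5 rose by 0.78 ± 0.097 (adjusted p = 0.00272), HLA-E by 0.42 (adjusted p = 0.0326) and TAPBP, which loads peptides, by 0.34 (adjusted p = 0.035). In DMSO 0 of the list were higher and 4 lower. Without HT, K422 or OCI-Ly10 1 gene of the list was called. Of 18 class II genes only HLA-DOA, a modulator of peptide exchange, was called (0.88, adjusted p = 0.00636), while in DMSO 1 was higher and 4 lower.

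Germinal center genes held 5 higher and 1 lower of 25. BACH2, POU2AF1, BCL6 and the migration receptor S1PR2 (0.66, adjusted p = 0.0148) rose with MME, and SERPINA9 fell by 0.48 (adjusted p = 0.0229). Without HT 2 were higher and 1 lower, without K422 or OCI-Ly10 2 and 0, and without TMD8 7 and 2. Plasma cell genes held 0 higher and 2 lower of 20, SUB1 (-0.64) and SEC11C (-0.37), and in DMSO 5 lower. Among 26 homing and migration receptors 3 were higher and 0 lower. They were S1PR2, PECAM1 (1.39, adjusted p = 0.019) and CD52, a small surface glycoprotein that went from 92.6 to 139 CPM in HT, 123 to 213 in K422, 38 to 89.2 in OCI-Ly10 and 0.137 to 0.837 in TMD8 (0.90 ± 0.12, adjusted p = 0.00331), and none of the 3 was called without OCI-Ly10. Among 21 checkpoint and costimulation genes LGALS9, which encodes galectin-9, was the only call (1.49, adjusted p = 0.00959), and it ended without K422.

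**Figure D3:**
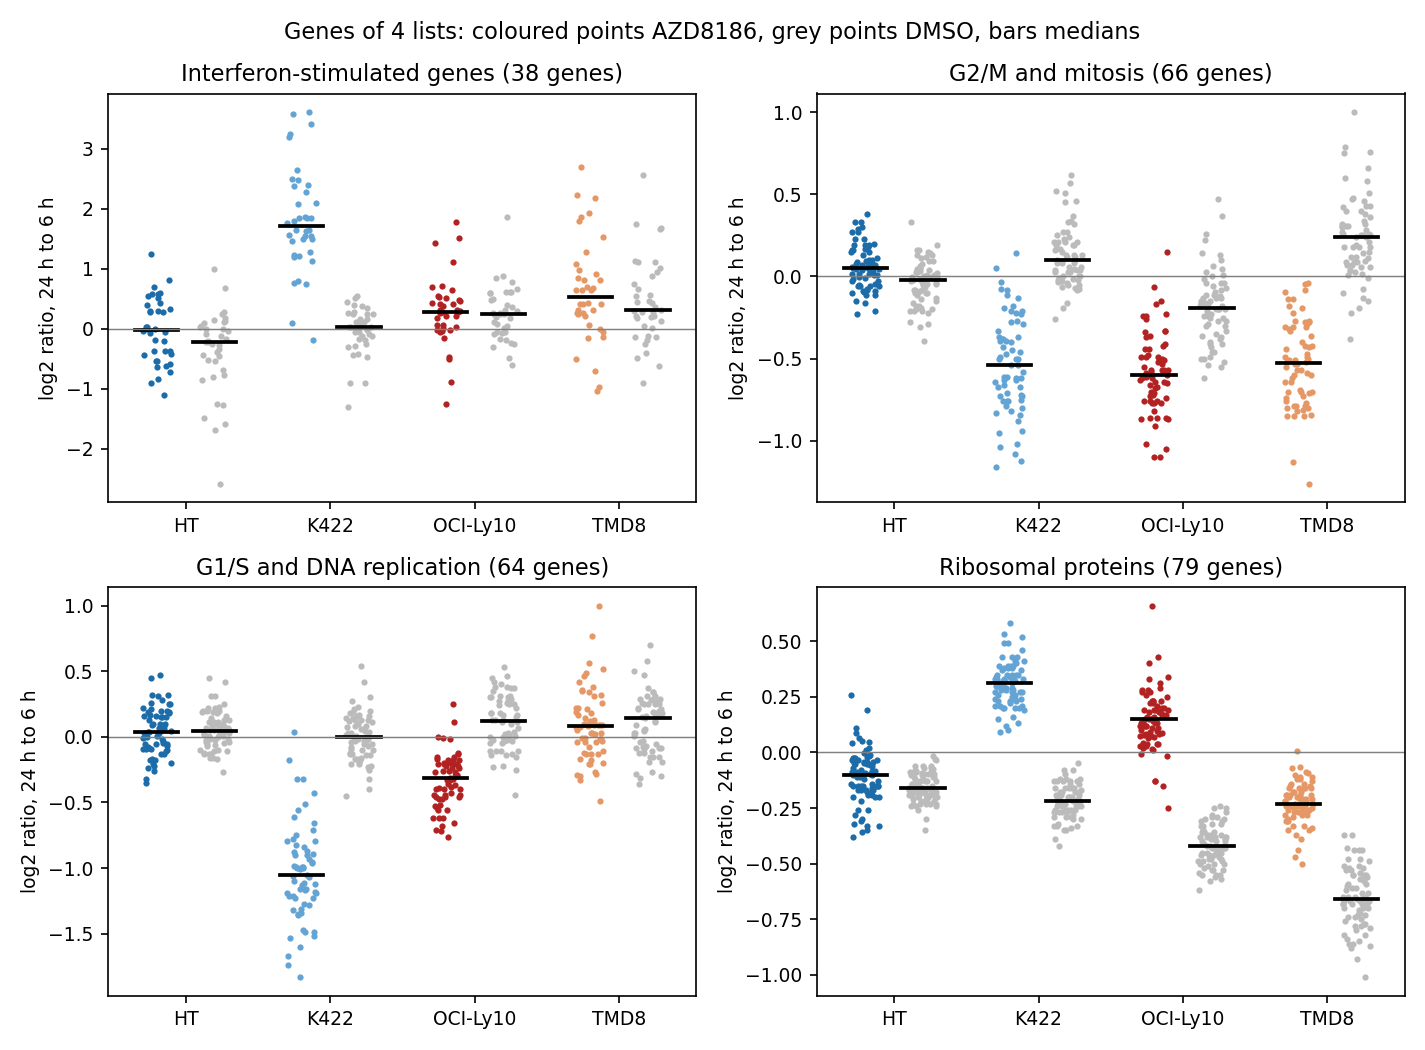
Log2 ratio of 24 h to 6 h for single genes of 4 lists (interferon-stimulated 38 genes, G2/M 66, G1/S 64, ribosomal proteins 79) in each cell line, AZD8186 in color and DMSO in gray, with bars at the medians. A reader should see the interferon genes highest in K422 (median 1.71), G2/M genes below 0 in K422, OCI-Ly10 and TMD8 but at 0.05 in HT, and ribosomal proteins lowest in DMSO in TMD8 (-0.66).

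Genes of G2/M and mitosis, which are transcribed as cells prepare to divide, held 0 higher and 13 lower of 66 tested, with a median of -0.42. In the 8-library fit 47 of them were lower and 0 higher at an unadjusted p under 0.05. Of all 11374 genes, 614 were lower and 1045 higher at that p. DMSO held 1 higher and 0 lower. The line medians under AZD8186 were 0.05 in HT, -0.54 in K422, -0.60 in OCI-Ly10 and -0.53 in TMD8, and in DMSO -0.024, 0.098, -0.19 and 0.24. The median in HT lay near 0 and those of the other 3 lines below it. Without K422 or without OCI-Ly10 no gene of the list was called, while without HT 20 were.

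CCNA2, cyclin A2, which drives S phase and entry into mitosis, measured 218 and 206 CPM in HT at 6 h and 24 h, 187 and 104 in K422, 137 and 84 in OCI-Ly10 and 137 and 102 in TMD8. Each line was lower at 24 h, HT by the least, and HT at 24 h stood above the other 3 at 6 h. It fell by 0.50 ± 0.12 (adjusted p = 0.0234), and its value in DMSO was 0.042. SPC25, a part of the NDC80 complex that ties kinetochores to microtubules, went from 56.9 to 51.1 CPM in HT, 38.4 to 18.6 in K422, 31.6 to 16.8 in OCI-Ly10 and 62.3 to 38.1 in TMD8 (-0.67 ± 0.15, adjusted p = 0.0187), lower in each line with overlap. TTK, the checkpoint kinase MPS1, fell by 0.50 (adjusted p = 0.0238). The calls of CCNA2, SPC25 and TTK ended without K422 or without OCI-Ly10. The SPC25 promoter (GRCh38.p14, chr2:168890381-168890680, minus strand) is shown because it holds, in capitals, 2 copies of the cell cycle homology region (CHR), searched as TTTGAA on both strands, which begin 247 and 3 bases before the start. This element was in 42 of 57 windows of the G2/M list (73.7%), in 18% of the windows of genes that fell, in 6.82% of those that rose and in 9.73% of all. The SPC25 window also holds matches to the CCAAT box, not marked, which begin 88 and 56 bases before the start. That motif was in 78.9% of the windows of the G2/M list, 40.6% of those of genes that fell, 30% of those that rose and 36.8% of all.
SPC25: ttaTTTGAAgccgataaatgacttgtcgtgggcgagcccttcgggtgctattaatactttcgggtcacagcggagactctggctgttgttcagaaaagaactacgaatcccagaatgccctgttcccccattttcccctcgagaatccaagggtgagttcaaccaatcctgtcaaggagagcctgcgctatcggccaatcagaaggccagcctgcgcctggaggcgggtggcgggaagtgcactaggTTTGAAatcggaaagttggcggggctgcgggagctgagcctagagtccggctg

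G1/S and DNA replication genes held 0 higher and 1 lower of 64, with a median of -0.32. The call was RFC4, a subunit of the clamp loader, which went from 61.2 to 55.9 CPM in HT, 95.8 to 37.4 in K422, 50.6 to 29.9 in OCI-Ly10 and 41.1 to 34.1 in TMD8 (-0.63, adjusted p = 0.0342), a call that ended without K422 or OCI-Ly10. The line medians were 0.036 in HT, -1.06 in K422, -0.32 in OCI-Ly10 and 0.081 in TMD8, so K422 stood apart from the others. Of 28 CDK inhibitors, cyclins and pocket proteins RBL2 was the only call. It went from 31.4 to 49 CPM in HT, 40.8 to 54.5 in K422, 26.8 to 30.4 in OCI-Ly10 and 31.1 to 40.2 in TMD8, higher at 24 h in all 4 lines with overlap between the times. BCL2 family genes held 3 higher and 0 lower of 18: BCL2 (0.40, adjusted p = 0.0182), the antagonist of cell death, and its opponents BCL2L11 and BBC3 (0.69, adjusted p = 0.028), which encodes PUMA. None of the list was called without HT, K422 or OCI-Ly10. BBC3 was also the only call among 27 p53 targets.

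Many enzymes of glycolysis fell. The glycolysis and hypoxia list held 2 higher and 11 lower of 34 tested, with a median of 0.06, and the lower genes were enzymes of the pathway apart from CA9, which was near 0 in some lines. DMSO held 3 higher and 4 lower. PGK1, which makes the first ATP of the pathway, measured 604 and 387 CPM in HT at 6 h and 24 h, 645 and 348 in K422, 575 and 392 in OCI-Ly10 and 646 and 432 in TMD8. All 4 libraries at 24 h lay below all 4 at 6 h, with no overlap. It fell by 0.67 ± 0.086 (adjusted p = 0.0028), and by 0.24 in DMSO (adjusted p = 0.0291). LDHA, which turns pyruvate into lactate, went from 1350 to 887 CPM in HT, 1610 to 910 in K422, 1990 to 1080 in OCI-Ly10 and 2260 to 1900 in TMD8 (-0.64 ± 0.098, adjusted p = 0.00392). ENO1 went from 2930 to 2090 CPM in HT, 3700 to 2280 in K422, 4870 to 2850 in OCI-Ly10 and 4960 to 3590 in TMD8 (-0.60 ± 0.085, adjusted p = 0.00331). Both were lower at 24 h in all 4 lines, with overlap across lines.

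ALDOA fell by 0.51 ± 0.076 (adjusted p = 0.00364), PKM by 0.55 (adjusted p = 0.005), and GAPDH, TPI1, GPI and PGAM1 by 0.37 to 0.54. ALDOC, a second aldolase, went from 71.1 to 24.3 CPM in HT, 70.2 to 25.8 in K422, 5.27 to 4.98 in OCI-Ly10 and 70.6 to 15.1 in TMD8. It fell by 1.48 ± 0.24 (adjusted p = 0.005), but also in DMSO, by 1.70 (adjusted p = 0.00136). HIF1A (0.40) and PFKFB4 (0.66), which encodes a regulator of phosphofructokinase, rose. The list kept 4 lower without OCI-Ly10, 8 lower without K422, 9 without HT and 11 without TMD8.

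Among ATF4 targets and amino acid transporters 1 gene was higher and 4 lower of 32, and the lower ones act in asparagine, serine and folate metabolism. ASNS measured 117 and 85 CPM in HT, 124 and 80.3 in K422, 141 and 47.6 in OCI-Ly10 and 79.1 and 36.1 in TMD8 at 6 h and 24 h. It was lower at 24 h in all 4 lines, in the ABC lines by the most, with overlap through TMD8 at 6 h. It fell by 0.94 ± 0.14 (adjusted p = 0.00349), and by 0.39 in DMSO (adjusted p = 0.0316). PHGDH, the entry enzyme of serine synthesis, went from 8.04 to 6.91 CPM in HT, 20.8 to 9.23 in K422, 90 to 41.5 in OCI-Ly10 and 126 to 53 in TMD8 (-0.99 ± 0.14, adjusted p = 0.00331), a call that ended without OCI-Ly10. PSAT1 of the same pathway fell by 0.56 and SHMT2, which passes the carbon of serine to folate, by 0.47, and SLC38A1 rose by 0.30. Of 20 aminoacyl-tRNA synthetases 2 fell, VARS (-0.37, adjusted p = 0.0318) and GARS (-0.37, adjusted p = 0.0373). TXN, the thiol reductant, went from 167 to 119 CPM in HT, 193 to 115 in K422, 394 to 236 in OCI-Ly10 and 158 to 111 in TMD8 (-0.62 ± 0.079, adjusted p = 0.0028).

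Chaperones, which fold new proteins, held 0 higher and 11 lower of 29, a list of cytosolic genes and the mitochondrial pair HSPD1 and HSPE1, with a median of -0.27, and in DMSO none was called. HSP90AA1 went from 2830 to 1970 CPM in HT, 2820 to 2080 in K422, 1820 to 1080 in OCI-Ly10 and 2170 to 1870 in TMD8 (-0.48 ± 0.11, adjusted p = 0.026). HSPE1, the small subunit of the mitochondrial chaperonin, went from 370 to 217 CPM in HT, 240 to 170 in K422, 336 to 193 in OCI-Ly10 and 303 to 257 in TMD8 (-0.57, adjusted p = 0.0058). Both were lower at 24 h in all 4 lines, with overlap. HSPD1, its partner, fell by 0.48 and CCT7, CCT5, CCT4, CCT6A and TCP1 of the cytosolic chaperonin by 0.27 to 0.41. Without OCI-Ly10 the list held 0 calls, without HT 2, without K422 5 and without TMD8 15. Endoplasmic reticulum folding genes held 1 higher (SYVN1, 0.45) and 1 lower (PDIA6, -0.44) of 30.

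Nuclear-encoded genes of the respiratory chain held 0 higher and 16 lower of 44, with a median of -0.23, and 1 higher and 8 lower in DMSO. Their median in the DMSO libraries at 6 h and 24 h was -0.17. When the AZD8186 change was tested against the DMSO change in all 30 libraries, 0 were higher and 2 lower, with a median of -0.077. Over all genes that test called 1.49% higher and 0.613% lower. NDUFA6 of complex I went from 119 to 92.3 CPM in HT, 87.1 to 61.6 in K422, 145 to 103 in OCI-Ly10 and 121 to 90.6 in TMD8 (-0.45 ± 0.07, adjusted p = 0.00416). Every line was lower at 24 h, with overlap through K422 at 6 h. NDUFV1 fell by 0.43 (adjusted p = 0.00392) and UQCRQ of complex III by 0.41 (adjusted p = 0.00959). The list held 2 calls without HT, 6 without K422, 0 without OCI-Ly10 and 15 without TMD8.

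Sterol synthesis held 6 higher and 1 lower of 26 with the drug and 6 higher and 1 lower in DMSO. MSMO1, a sterol oxidase, went from 49.6 to 96.9 CPM in HT, 43.3 to 66.9 in K422, 45 to 49.7 in OCI-Ly10 and 42.6 to 81.3 in TMD8. Each line was higher at 24 h, and OCI-Ly10 at 24 h was level with HT at 6 h. It rose by 0.67 ± 0.11 (adjusted p = 0.00561) under AZD8186 and by 0.71 in DMSO (adjusted p = 0.00706). SQLE (0.50), CYP51A1, DHCR7 and MVD rose as well and FDPS fell by 0.66 (adjusted p = 0.00941). Without HT 1 gene of the list was higher and 1 lower, and without OCI-Ly10 2 and 0. Of 20 fatty acid synthesis genes 2 rose, ACACA (0.51) and ACSL4 (0.32), and 4 in DMSO.

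Ribosomal protein genes showed no change over time under AZD8186 that passed the test: edgeR, DESeq2 and limma-voom called 0 of 79 in the 15 libraries, and edgeR had 1 higher and 1 lower at an unadjusted p under 0.05. Of all 12584 genes, 1675 were higher and 1202 lower at that p. The median of the ribosomal protein genes was 0.047. In DMSO all 79 were called lower. The line medians under AZD8186 were -0.10 in HT, 0.31 in K422, 0.15 in OCI-Ly10 and -0.23 in TMD8, against -0.16, -0.22, -0.42 and -0.66 in DMSO. TMD8, the line with the highest ribosomal RNA share at 6 h, had the lowest median with the drug. FAU, the gene of the list with the smallest p in the 8 libraries, measured 1160 and 926 CPM in HT, 891 and 973 in K422, 1260 and 1060 in OCI-Ly10 and 1130 and 865 in TMD8 at 6 h and 24 h (-0.20, adjusted p = 0.201). It was higher at 24 h in K422 alone. Of 75 ribosome biogenesis genes 1 was lower (EBNA1BP2, -0.43), and of 60 MYC targets 4 were lower: HSPE1, HSPD1, PHB (-0.47) and NPM1 (-0.33). Of the MYC targets 0 were called without OCI-Ly10 and 10 were lower without TMD8. Lysosome and autophagy genes held 1 lower of 44, MCOLN1 (-0.40). Of the lists of other cells, 0 of 6 T-cell, 0 of 2 myeloid and 0 of 3 stromal genes tested were called. Replication-dependent histones held 1 higher of 16 and ribosomal RNA and related genes 2 lower.

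**Figure D4:**
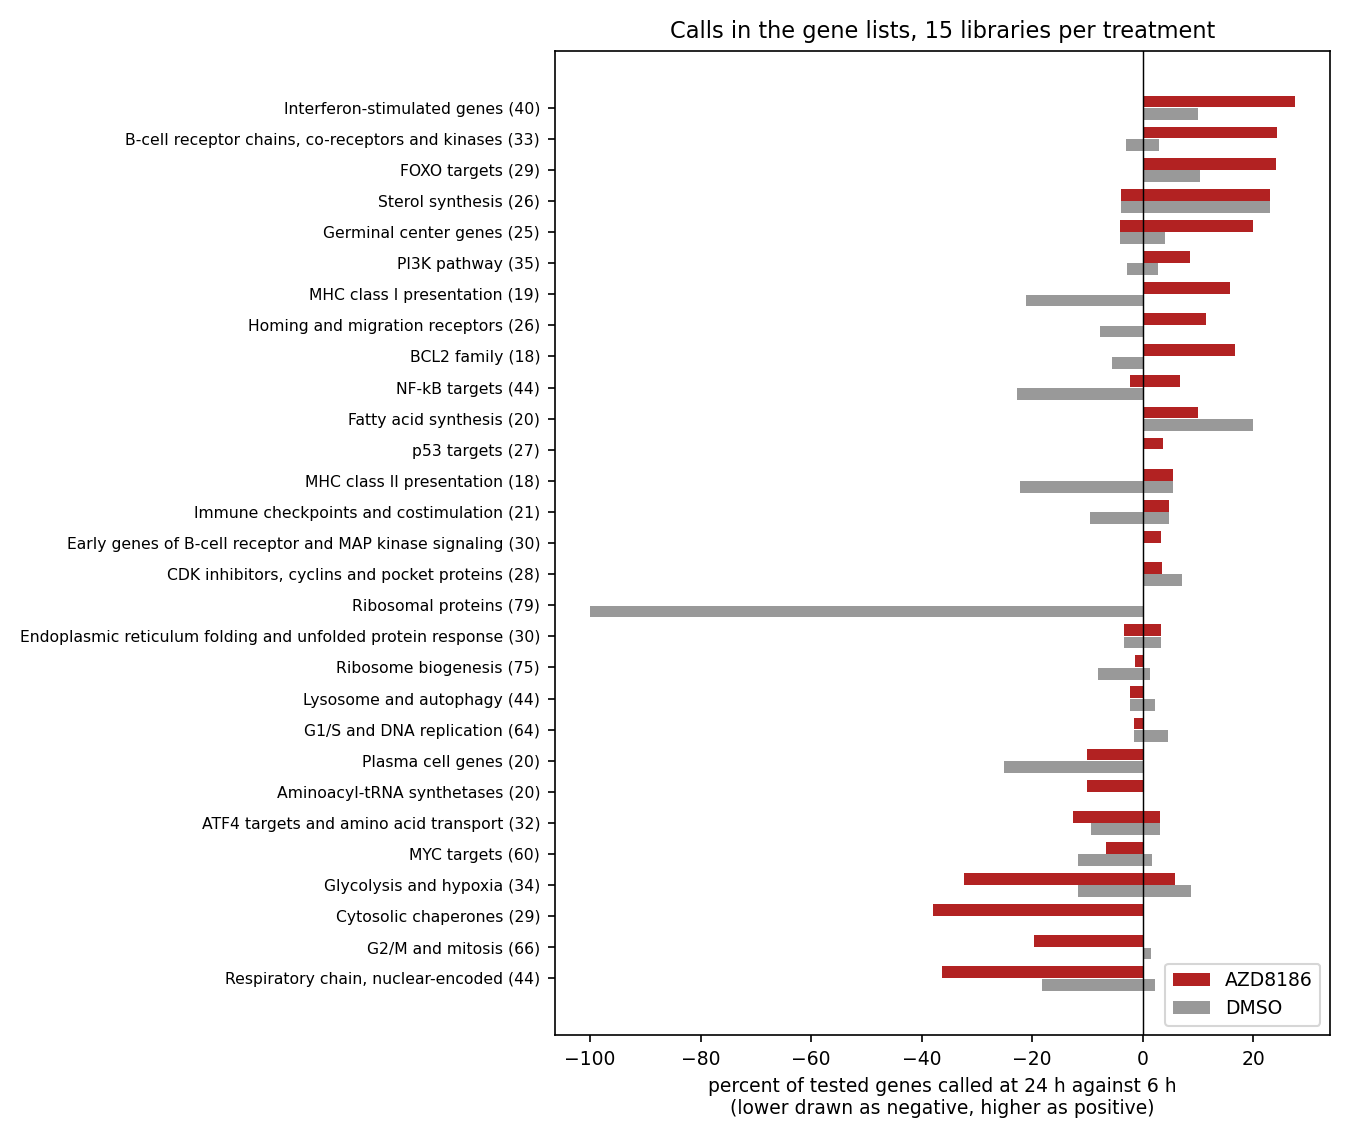
Percent of the tested genes of each list called higher (right) or lower (left) at 24 h against 6 h, for AZD8186 and DMSO, 15 libraries each. Interferon-stimulated genes reach 11 of 40 higher under AZD8186, respiratory chain genes 16 of 44 lower, chaperones 11 of 29 lower, and ribosomal proteins are called in DMSO only, all 79 lower.

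Outside the lists, the called genes of at least 5 CPM on average with the furthest fold changes were looked at after the 8 libraries had given no call. TCL1A, an AKT coactivator, went from 9.99 to 23.5 CPM in HT, 1.94 to 44.6 in K422, 176 to 398 in OCI-Ly10 and 752 to 888 in TMD8 (1.54 ± 0.42). Its level was higher at 24 h in all 4 lines, in K422 by far the most, and the call ended without HT or OCI-Ly10. RASAL1 (1.39), a GTPase-activating protein of RAS, HES6 (1.29), a transcriptional regulator of the HES family, and GPLD1 (1.26), a phospholipase that cuts surface anchors, rose. MYBPC2 (-1.12), SLC12A8 (-1.14), the serotonin receptor subunit HTR3A (-1.04), the kinase CAMK1 (-0.98) and the metallothionein MT2A (-0.94) fell. Their adjusted p and those of RASAL1, HES6 and GPLD1 ran from 0.00349 to 0.0438 (edgeR). The call of GPLD1 ended without HT, and those of MYBPC2 and MT2A without OCI-Ly10. Those of RASAL1 and CAMK1 ended without HT or OCI-Ly10, and those of HES6, SLC12A8 and HTR3A without HT, K422 or OCI-Ly10.

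Whether the change over time differed between AZD8186 and DMSO was tested as an interaction. In the 16 libraries at 6 h and 24 h, edgeR called 1 of 12361 genes higher (0.00809%) and 0 lower (0%), with 1238 at an unadjusted p under 0.05, while DESeq2 called 125 and 111. The call was TAS1R3, a taste receptor subunit, at 1.85 and 3.15 CPM in HT, 113 and 202 in K422, 60.2 and 150 in OCI-Ly10 and 0.82 and 0.698 in TMD8 with the drug at 6 h and 24 h. In DMSO it was at 1.84 and 1.05 CPM, 150 and 90.7, 50.2 and 35.3, and 0.138 and 0 in the same order. It was higher at 24 h in 3 lines with the drug and lower in all 4 without. The interaction was 1.69 ± 0.16 (adjusted p = 0.0408), and it was not called without HT or without OCI-Ly10. With all 30 libraries 192 of 12897 genes were higher (1.49%) and 79 lower (0.613%) in the AZD8186 change than in the DMSO change. Without K422 these counts were 18 and 4, without OCI-Ly10 6 and 0, without HT 192 and 115, and without TMD8 280 and 255.

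In the 30-library test LTB differed by 2.45 ± 0.31 (adjusted p = 0.00197), TRAPPC6A by 1.13 (adjusted p = 0.000983), CD52 by 1.04 (adjusted p = 0.00103), PTPN6 by 0.97 (adjusted p = 0.00988), BACH2 by 1.31 (adjusted p = 0.0354), TRIM22 by 0.88 (adjusted p = 0.0213) and PIK3IP1 by 0.91 (adjusted p = 0.0376), all by edgeR. PTPRCAP, a partner of the phosphatase CD45, differed by 0.70 (adjusted p = 0.0043), higher at 24 h in all 4 lines with the drug and lower in all 4 in DMSO. On the lower side stood ASNS (-0.55), PGK1 (-0.43), LDHA (-0.46), PKM (-0.52), CCNA2 (-0.56), the caspase CASP6 (-0.85), the annexin ANXA6 (-0.52), the galactose mutarotase GALM (-0.92) and FANCD2 (-0.61), which acts in DNA crosslink repair. Without OCI-Ly10 this test called no gene lower, and so none of these. SPX (-1.57) was measured only in K422, at 139 and 42 CPM, and near 0 elsewhere. Of 45 NF-κB targets tested 5 were higher and 0 lower, among them BIRC3 (0.96), RELB (0.81), BCL2L1 (0.65) and IL10 (1.16). The shares over all genes in this test were 1.49% higher and 0.613% lower. The median of the NF-κB targets, 0.50, became 0.096 without TMD8, with 4 higher and 1 lower, and 0.072 without the TMD8 libraries at 6 h. Without OCI-Ly10 1 NF-κB target was called and without K422 2. Ribosomal protein genes held 47 higher and 0 lower of 79, none of them called without K422 or OCI-Ly10.

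Whether the ABC lines changed otherwise than the GCB lines was tested with 2 lines a subtype. By the study's methods OCI-Ly10 and TMD8 grew in Iscove's medium and HT and K422 in RPMI medium. Subtype and culture medium therefore cannot be told apart in this test. In the 8 libraries edgeR called none of 11374 genes with the higher change in the ABC lines (0%) or in the GCB lines (0%), with 606 at an unadjusted p under 0.05, while DESeq2 called 17 and 18. Without HT the counts were 17 and 60 and without K422 2 and 5, but each of these fits left 1 line in the GCB arm, which is assumed to vary like the ABC lines. With 15 libraries 8 of 12584 genes (0.0636%) had the higher change in the ABC lines and 9 (0.0715%) the higher change in the GCB lines. ITGAL, the integrin LFA-1 chain, went from 14.9 to 21.2 CPM in HT, 0 to 0.0516 in K422, 21.3 to 6.48 in OCI-Ly10 and 192 to 51.8 in TMD8. It was lower at 24 h in both ABC lines only, and the difference was -2.34 ± 0.24 (adjusted p = 0.00952).

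LMNA, a lamin of the nuclear envelope, went from 30.7 to 42.3 CPM in HT, 20.2 to 43.9 in K422, 8.07 to 3.8 in OCI-Ly10 and 26.9 to 11.1 in TMD8, a difference of -2.0. Both GCB lines were higher at 24 h and both ABC lines lower. GMFG went from 0.55 to 7.64 CPM in HT, 0 to 0.361 in K422, 29.4 to 38.6 in OCI-Ly10 and 9.16 to 11.3 in TMD8, higher at 24 h in all 4 lines, and its difference was -3.51. MX2, an interferon-stimulated gene, differed by -1.84 (adjusted p = 0.0245) through K422, where it went from 30.1 to 128 CPM, against 87.4 and 99.2 in OCI-Ly10 and 118 and 141 in TMD8, and in the 8 libraries it was 0.22 without K422. On the other side CD180, a receptor related to Toll-like receptors, went from 10.1 to 8.55 CPM in HT, 32.7 to 23.4 in K422, 79.7 to 142 in OCI-Ly10 and 27.9 to 66.7 in TMD8, a difference of 1.40. TXNDC5 (1.21), TM7SF2 (1.23) and ALDH2 (2.28) likewise were higher at 24 h in both ABC lines. None of the genes named for this test was called by edgeR in the 8 libraries. TM7SF2 and ALDH2 act in sterol synthesis and in the breakdown of aldehydes, and TXNDC5 folds proteins in the endoplasmic reticulum.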

How the data were processed

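Total RNA of the 4 DLBCL lines was sequenced after AZD8186 or DMSO. According to the study's methods and the submitters' processing notes, HISAT2 aligned the reads against human transcripts (GRCh38.p12) and RSEM gave a value per gene. Tool versions are not stated in the sources read here. Each deposited table lists 21112 genes with RSEM's expected counts, which the authors left without normalization. Of these, 23.65% to 29.25% per library were not whole, and reads shared by near-identical genes are split among them. The deposited TPM, which the authors scaled by effective length and library, served as an alternative. The deposited FPKM of the authors were not used.

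Expected counts were rounded, the 20 pseudoautosomal copies were added to their genes (21092 left), and genes were filtered with filterByExpr and normalized by TMM. The edgeR 4.0.16 quasi-likelihood F test (R 4.3.3) compared 24 h with 6 h with cell line as a block, over 8 libraries and, as an alternative, over all 15 AZD8186 libraries. AZD8186 minus DMSO and ABC minus GCB were interaction terms. Genes with a Benjamini-Hochberg adjusted p under 0.05 were called. DESeq2 1.42.0 and limma 3.58.1 were alternatives, log2(TPM + 1) and log2(TPM + 0.1) among them. An exact permutation test over 4 pairs cannot go below a two-sided p of 0.125. The steps were tested on simulated data. The pairing comes from the cell line, which the labels give. Levels are normalized CPM, and log2 ratios within a line used a prior count of 2. Tables were handled in Python 3.11.15 with pandas 2.3.3 and plotted with matplotlib 3.10.9.

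Named genes were the 10 furthest fold changes each way among called genes of at least 5 CPM with 1 direction in all lines, up to 3 called genes per list by p (or the one of smallest p), the 6 and 4 smallest p each way of the 2 interaction tests, 14 genes the paper names, and genes of the PI3K pathway (PIK3CA, PIK3CB and PIK3CD). Some genes that this rule takes are not reported here. Since the 8 libraries gave no call, the first 2 parts were repeated on the 15 libraries, a choice made after seeing the data, and further members of the lists were named after their values were seen. The members and lists were chosen with earlier results of these data known. Promoter windows and gene positions came from RefSeq (GRCh38.p14) and GENCODE 29, with windows for 9733 of 12584 tested genes, 337 of 438 that rose and 244 of 305 that fell.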

Additional observations from a re-analysis of the deposited data

Results flagged for a closer look

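In groups of 4 lines, chance marks about 1 in 20 genes as having a line far from the others, and 5 of the named genes had one. That is about as many as chance alone would mark among the named genes. None of the 5 is therefore read as a trait of its line. PHGDH had a log2 ratio of 24 h to 6 h under AZD8186 of -0.22 in HT, against -1.25 to -1.12 in the other lines. SLC12A8 stood at -0.34 in TMD8 against -1.16 to -1.09. MYC, by contrast, was at 1.38 in TMD8 and at 0.19 to 0.39 elsewhere. MX2 was at 2.08 in K422 and at 0 to 0.26 in the other lines, and PLAC8 was at -0.72 in K422 and at 0.45 to 0.55 elsewhere. TAS1R3 was the gene whose change over the 18 hours differed between AZD8186 and DMSO in the test of the difference itself, by 1.69 on the log2 scale (edgeR adjusted p = 0.0408 in 16 libraries).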

How the results depend on the processing

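With 8 libraries, 0 genes were higher and 0 lower by edgeR, under other size factors, a stricter filter, limma-voom, TPM and without the replicate block (0 and 0). DESeq2 gave 185 higher and 135 lower, no filter 61 and 20, all 15 libraries 438 and 305, a straight line over hours 728 and 580, 18 h in place of 24 h 7 and 3, and 18 h and 24 h against 6 h and 12 h 534 and 430. The GCB lines alone gave 18 and 5 and the ABC lines alone 0 and 3. Leaving out a line gave 0 to 1 higher and 0 lower.

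The alternatives of the 15-library and 30-library fits were chosen after seeing the data. With 15 libraries (438 and 305), leaving out a line gave 24 to 664 higher and 7 to 511 lower, with the fewest without OCI-Ly10. DESeq2 gave 595 lower, log2(TPM + 1) 124 lower and log2(TPM + 0.1) 126 lower. An adjusted p under 0.01 gave 86 and 57 and one under 0.1 gave 868 and 639. Without the TMD8 AZD8186 library at 6 h, which had the highest share of ribosomal RNA (4.35%), 533 were lower. Without the replicate block, that is without the pairing by line, 0 and 0 were called.

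For AZD8186 minus DMSO in 16 libraries (1 and 0), DESeq2 gave 125 and 111, no filter 4 higher, the pairs as a block without cell line by treatment 0 higher, all 30 libraries 192 and 79, and leaving out a line 0 to 5 higher. With 30 libraries DESeq2 gave 351 and 345, limma-voom 324 and 163, and leaving out a line 6 to 280 higher and 0 to 255 lower. For ABC minus GCB (0 and 0), DESeq2 gave 17 and 18, all 15 libraries 8 and 9, and leaving out a line 0 to 17 and 0 to 60. The causes were not tested.

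The named genes whose sign turned were CSF1R, DCN, JUNB, TNF and TNFAIP3, none of them called, and MX2 in ABC minus GCB, called with 15 libraries. CSF1R turned to 0.13 without the TMD8 AZD8186 library at 6 h, and with a line left out ran from -0.65 to 0.0051. With a line left out DCN ran from -0.12 to 0.28, JUNB from -0.0092 to 0.25, TNF from -0.14 to 0.65 and TNFAIP3 from -0.044 to 0.24. TNFAIP3 was at -0.059 without the TMD8 AZD8186 library at 6 h. MX2 in ABC minus GCB ran from -1.86 to 0.22, the latter without K422. Among the named genes in 15 libraries, 1139 values under alternatives stayed on their side of the threshold, 297 lost a call, 16 gained one and 7 turned. With 1 library per line and time, no spread within a line could be measured.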
